A study of Mus musculus with 12 samples.

Results

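The contacts that the Ets1 promoter makes along mouse chromosome 9 were measured by 4C-seq in embryonic stem (ES) cells and in mouse embryonic fibroblasts (MEFs). The profile comprises every listed window of the table for this viewpoint, 8207 of the 17305 windows listed for the 3 viewpoints of the series, in 4 of its 12 libraries. The viewpoint is the chosen site whose ligation partners are amplified and counted. The 2 ES libraries came from the V6.5 line, a mouse ES line of hybrid background, grown in KO-DMEM under 2i conditions. The 2 MEF libraries came from fibroblasts of rtTA3-OKSM embryos at E13.5, grown in DMEM at low oxygen. These carry, in the heterozygous state, the Oct4-GFP reporter, an inducible OKSM cassette of reprogramming factors and the transactivator rtTA3. The design text of the series calls the transactivator M2rtTA, places it at Rosa26 and the cassette at Col1a1, and states doxycycline only for the cells being reprogrammed, and no treatment is given for these MEFs. No cassette is named for the ES line, so cell type, genetic background, medium and transgenes differ together between the groups and cannot be told apart. The libraries hold no expression values, so cell identity was not checked against marker genes. The study used 4C-seq to look at single sites after mapping contacts across the genome, and the comparison here is which contacts of the Ets1 promoter ES cells and MEFs share and which differ.

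Ets1 encodes a transcription factor of the ETS family, known for its roles in lymphoid, endothelial and mesenchymal cells, and its neighbour Fli1 encodes another member of that family. Contact frequency between sites on a chromosome falls with the distance between them, because chromatin is a polymer whose nearby segments meet more often. On top of that fall, chromosomes are partitioned into domains within which contact is frequent, and promoters can meet distal regulatory elements as local peaks. A 4C count pools many cells, so contact in more cells and more frequent contact per cell cannot be told apart.

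3 RefSeq promoter windows (GRCm38.p6, the assembly that mm10 names) are shown because the profile separates the cell types at them or peaks at them in both. Each runs from 250 bases before to 50 bases after the annotated start. Gm31871 and Gm31928, both long noncoding RNA genes, lie under contact peaks ranked in both cell types, and Kcnj5, a potassium channel gene, lies where ES cells had more contact than MEFs. Capitals mark GATC, the site cut by DpnII, the enzyme that sets where contacts can be read.
Gm31871, chr9:32594246-32594545, plus strand: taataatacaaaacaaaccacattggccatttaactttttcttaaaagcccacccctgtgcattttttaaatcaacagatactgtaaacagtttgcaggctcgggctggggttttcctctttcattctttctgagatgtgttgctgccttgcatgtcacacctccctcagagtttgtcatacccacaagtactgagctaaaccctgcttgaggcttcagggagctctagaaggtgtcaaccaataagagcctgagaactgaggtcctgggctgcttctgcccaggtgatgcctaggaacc
Gm31928, chr9:32630267-32630566, plus strand: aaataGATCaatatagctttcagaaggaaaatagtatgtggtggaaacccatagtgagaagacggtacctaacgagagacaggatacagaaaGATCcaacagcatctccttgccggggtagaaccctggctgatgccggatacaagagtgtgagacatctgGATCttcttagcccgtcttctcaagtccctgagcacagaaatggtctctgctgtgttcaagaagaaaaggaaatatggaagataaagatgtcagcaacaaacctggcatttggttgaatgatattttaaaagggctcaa
Kcnj5, chr9:32344295-32344594, minus strand: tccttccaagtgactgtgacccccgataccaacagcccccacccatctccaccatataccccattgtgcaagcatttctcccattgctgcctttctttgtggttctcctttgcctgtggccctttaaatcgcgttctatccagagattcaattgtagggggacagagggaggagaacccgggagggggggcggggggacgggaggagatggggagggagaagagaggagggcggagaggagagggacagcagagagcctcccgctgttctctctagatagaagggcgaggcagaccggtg
The Gm31928 window held 3 GATC sites, and those of Gm31871 and Kcnj5 held 0. Of 32851 promoter windows in the RefSeq table, 48.0% held at least 1 GATC. The letters CACCC or their reverse complement GGGTG, a box read by KLF-type factors, occurred 1 time each in the Gm31871 and Kcnj5 windows and 0 times in that of Gm31928, against 57.5% of all promoter windows with at least 1. GGAA or TTCC, the core of ETS motifs, occurred in 96.0% of all promoter windows and in these 3. GTAC, the site of the second enzyme, Csp6I, occurred in 35.8% of all promoter windows. These are matches of letters on both strands and not measured binding sites. Of 39 gene loci looked up, 26 had a promoter window in the table, and Ets1 and Fli1 were not among them.

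Values are counts per 1000 of a library total, in windows of 10 kb that step by 1 kb. ES replicate 1 held 70629 counts in all, ES replicate 2 206874, MEF replicate 1 13629 and MEF replicate 2 29638, so 1 count was worth 0.0142, 0.00483, 0.0734 and 0.0337 per 1000 in that order. Windows that do not overlap held 65.8% and 64.5% of the total in ES cells and 77.1% and 77.2% in MEFs, and the remainder was not analysed here. No listed window was empty in more than 1 library, and in 3077 windows that library was MEF replicate 1. Replicates differed by more than read-counting error (chi-square 6431 on 742 degrees of freedom for ES and 2707 on 357 for MEF), a test that takes amplified reads as independent molecules. The labels do not say whether replicates were separate cultures. The p-values therefore reflect only how far these libraries varied, possibly for technical reasons, and limma pools that spread over windows that overlap.

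How far the profile can be read was set by how well replicates matched at each distance. Across windows on a 10 kb grid, which share their library and the fall with distance, Pearson's r of log2(value + 0.1) from 20 to 200 kb was 0.93 between ES replicates and 0.86 between MEF replicates (36 windows). From 200 kb to 1 Mb it was 0.81 and 0.65 (136 windows). From 1 to 5 Mb the ES pair had 0.47 and the MEF pair -0.03 (360 windows), and the median window there held 2 and 4 counts in the MEF libraries. Values of single listed MEF windows beyond 1 Mb thus showed no common pattern between replicates. Every listed window has counts in at least 3 libraries, so one empty in a MEF library has counts in the other. At such low counts this rule can lower r by itself, and its part was not tested. Sums over many windows are given there first.

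The viewpoint lay at chr9:32698001-32708000, inside the Ets1 gene (chromosome 9, 32636241 to 32757820), where the table peaks. In that window ES replicates held 88.5 and 87.3 and MEF replicates 104 and 108 counts per 1000. The windows up to 20 kb from its centre held 17.7% and 16.7% of the library total (ES) against 17.5% and 19.4% (MEF), and these sums over both sides overlapped. Each side alone did not: the lower side held 5.72% and 5.11% (ES) against 4.78% and 4.46% (MEF), and the higher side 12.0% and 11.6% against 12.7% and 15.0%.

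**Figure D1:**
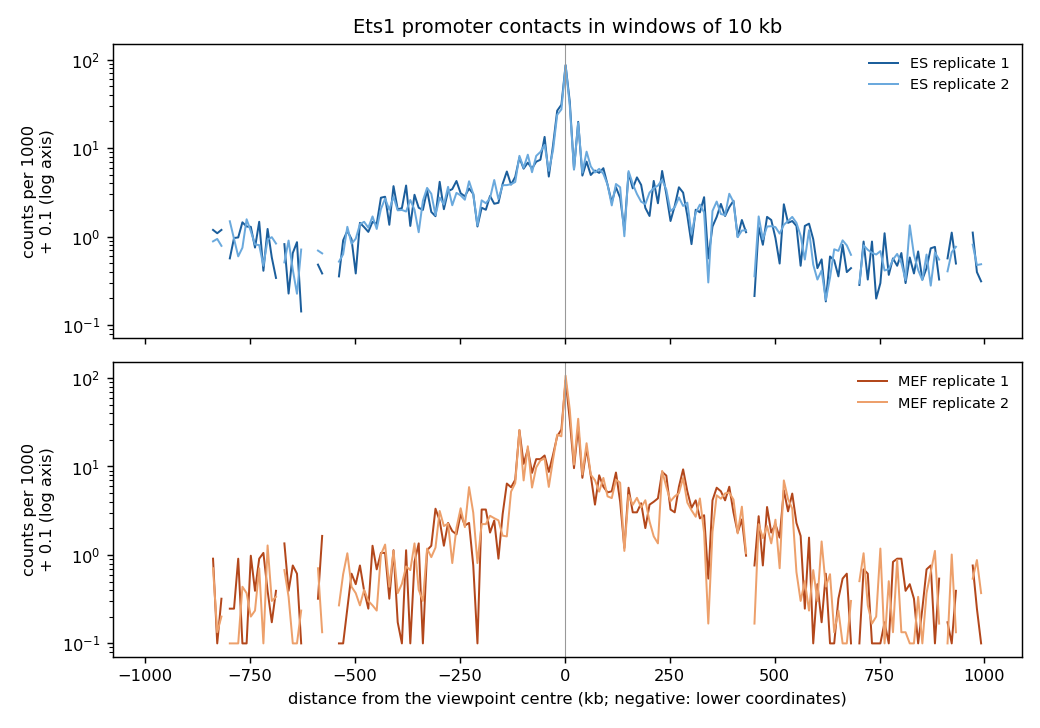
Counts per 1000 plus 0.1 (log axis) in windows of 10 kb on a 10 kb grid against distance from the viewpoint centre, up to 1 Mb on each side, for the 2 ES libraries (top) and the 2 MEF libraries (bottom). Lines break where a window is not listed. Both cell types peak at the viewpoint, and MEF values stay high on the right up to about 550 kb, where they drop, and are low on the left beyond 300 kb.

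Contact fell faster with distance in both MEF libraries than in either ES library. The slope of log10 contact on log10 distance, over 12 bins from 20 kb to 2 Mb with both sides together, was -0.89 and -0.88 in ES replicates and -1.10 and -1.15 in MEF replicates. The groups did not overlap, with an ES mean of -0.88 ± 0.01 and a MEF mean of -1.13 ± 0.04 (SD, n = 2 each). The fall was steeper in both MEF libraries on either side of the viewpoint. Toward lower coordinates ES cells had a slope of -0.87 (both libraries) against -1.17 ± 0.02 for MEFs, and toward higher coordinates -0.89 ± 0.01 against -1.10 ± 0.04 (SD, n = 2 each). With 2 libraries against 2, an exact permutation test (two-sided) cannot go below 0.33, which was its value for the slope, the share within 200 kb and the side balance alike, also after adjustment over these 3.

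A single slope hid where the curves crossed. From 92.8 to 136 kb ES replicates held 4.19 and 4.28 counts per 1000 per window and MEF replicates 8.78 and 7.84, a ratio of ES to MEF of 0.509. From 136 to 200 kb the libraries lay together, with ES values of 3.21 and 3.19 next to MEF values of 3.07 and 3.14. From 632 to 928 kb the order had turned, with 0.599 and 0.610 in ES cells against 0.321 and 0.250 in MEFs, 2.12 times as much in ES cells. The ES curve was thus lower near the promoter and higher from 632 kb to 2 Mb, where the bins end. In the bins between, both MEF libraries were higher again from 200 to 294 kb (ratio 0.778) and from 431 to 632 kb (ratio 0.888).

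**Figure D2:**
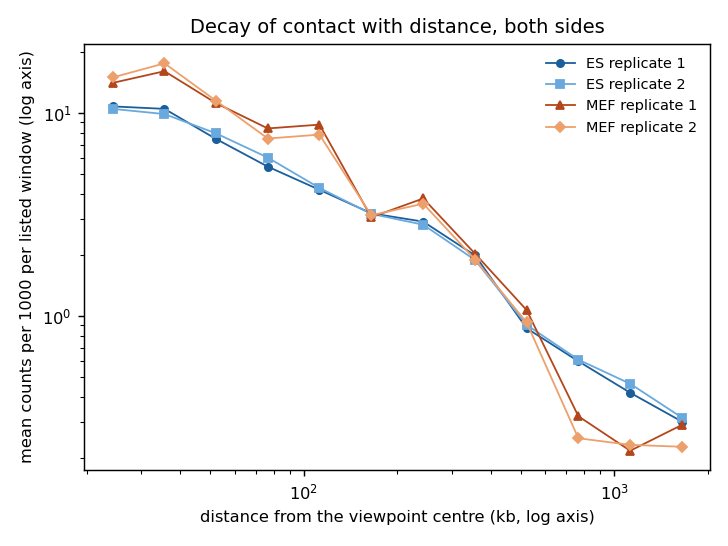
Mean counts per 1000 per listed window against distance from the viewpoint centre, both sides together, in 12 bins equal in log distance (both axes log), 1 line per library. The MEF lines start above the ES lines, meet them between 136 and 200 kb and rise above them again at 200 to 294 kb. They also lie above at 431 to 632 kb, and below from 632 kb to 2 Mb.

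As shares of all listed counts beyond 20 kb, 39.1% and 40.1% lay within 200 kb in ES replicates and 46.7% and 47.4% in MEF replicates, or 39.6% ± 0.684 against 47.1% ± 0.496 (SD, n = 2 each). The distance that held 50% of these counts was 288 kb (ES replicate 1), 282 kb (ES replicate 2) and 232 kb (both MEF libraries). For 75% it was 992 and 898 kb against 658 and 752 kb, again shorter in both MEF libraries. For 90% the order turned, with ES distances of 2512 and 2292 kb and MEF distances of 2762 and 4522 kb. As percent of the library total, the class from 1 to 2 Mb held 5.08 ± 0.237 for ES cells against 3.59 ± 0.434 for MEFs, and that from 10 to 30 Mb 0.841 ± 0.259 against 2.14 ± 0.378 (SD, n = 2 each). In the far class ES replicate 2, the deepest library, was lowest at 0.657%, followed by ES replicate 1 at 1.02%, MEF replicate 1, the shallowest, at 1.87% and MEF replicate 2 at 2.41%. A window is listed only with counts in at least 3 libraries, so each has counts in a MEF library, although these are the shallower ones. The parts of depth and of this listing rule in the far class and in the 90% distances were not tested.

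The promoter's contacts were near balance in both ES libraries and leaned toward higher coordinates in both MEF libraries. From 20 kb to 1 Mb, lower coordinates held 52.3% and 51.6% of the counts in ES replicates and 42.3% and 39.9% in MEF replicates. The means were 52.0% ± 0.446 and 41.1% ± 1.69 (SD, n = 2 each), and the groups did not overlap. Lower coordinates hold Fli1, Kcnj1, Kcnj5 and Arhgap32, and higher coordinates hold long noncoding RNA genes up to Kirrel3.

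The lean did not extend over the whole profile. From 20 to 200 kb lower coordinates held 51.9% ± 0.0799 for ES cells against 51.5% ± 4.40 for MEFs (SD, n = 2 each), a difference smaller than the spread of the MEF libraries (exact permutation p = 1.00). Within that range the class from 20 to 50 kb already had less on the lower side in MEFs, at 44.0% and 36.1% against 48.6% and 46.0% in ES replicates, and the classes from 50 to 200 kb did not. The gap was widest between 200 and 500 kb, with 55.5% and 53.6% in ES replicates against 22.5% and 27.7% in MEF replicates. It remained from 500 kb to 1 Mb, at 45.6% and 45.8% against 27.9% and 20.9%, with 32 windows listed on the lower side and 45 on the higher. Beyond, both cell types leaned the same way: from 2 to 5 Mb the lower side had 27.8% and 23.5% (ES) against 16.5% and 19.7% (MEF), where 69 windows were listed on that side and 140 on the other.

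**Figure D3:**
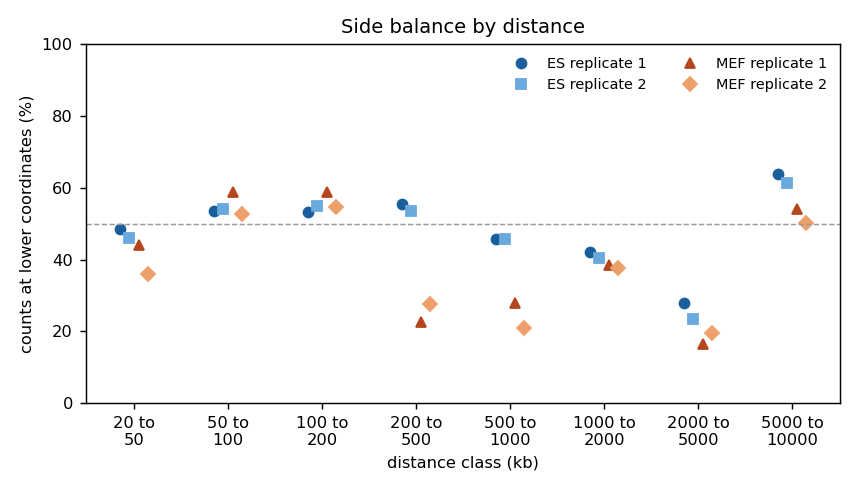
Percent of counts at lower coordinates in 8 distance classes, 1 point per library, with a dashed line at equal sides. From 50 to 200 kb the ES and MEF points lie between 52.7 and 58.9, and between 200 and 1000 kb the MEF points fall to between 20.9 and 27.9 while the ES points stay between 45.6 and 55.5.

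In bins of 50 kb, limma called 16 of 40 bins at an adjusted p of at most 0.05 (40.0%), of which 9 had more contact in ES cells (22.5%) and 7 in MEFs (17.5%). Of the 9 ES-higher bins 8 lay at lower coordinates, beyond 300 kb, and of the 7 MEF-higher bins 6 lay at higher coordinates, within 550 kb. Bin values are mean counts per 1000 per window, and differences are ES minus MEF on the log2(bin mean + 0.1) scale, on which changes of low values come out smaller. No bin was called without ES replicate 1 or without ES replicate 2 (10 and 9 bins at an unadjusted limma p of at most 0.05), and 28 and 30 were called without MEF replicate 1 or 2. In these fits 1 arm holds 1 library that is assumed to vary like the other cell type's pair, so the counts also reflect which pair supplies the spread. With the replicate number as a block, which the labels do not state to be a pairing, 0 bins were called (18 at an unadjusted limma p of at most 0.05). All 16 kept their direction in each of these 5 fits. Under 3 other scalings of the libraries 6 of the 9 ES-higher and 3 of the 7 MEF-higher bins remained called in their direction, and the split of calls became 6 ES-higher to 14 MEF-higher with median-centred values and 13 to 3 on both rescalings.

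**Figure D4:**
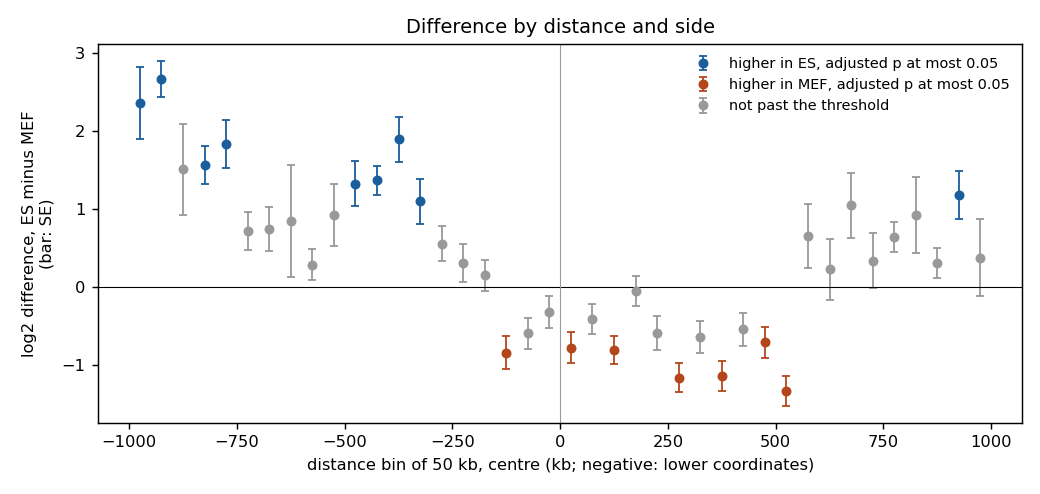
Log2 difference, ES minus MEF, on the log2(bin mean + 0.1) scale in bins of 50 kb (points, with SE bars) against distance and side, coloured by limma call. On the left, differences rise from -0.84 at 100 to 150 kb to 1.90 at 350 to 400 kb, and on the right they stay below 0 up to 550 kb and above 0 beyond it.

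Toward lower coordinates each bin called beyond 300 kb was ES-higher, though not every bin there was called, and MEFs had more contact at 100 to 150 kb. At 100 to 150 kb, over Gm31871 and the stretch up to Fli1, MEFs were higher, with 9.76 and 7.87 against 4.96 and 4.72 in ES cells (log2 difference -0.84, SE 0.21, limma adjusted p = 0.0369), a call that ended on rescaling to the listed windows or without windows within 50 kb. Across the boundary at 150 kb the MEF mean dropped 3.85-fold and the ES mean 1.89-fold, and at 150 to 200 kb all 4 libraries lay between 2.27 and 2.81. The bin from 350 to 400 kb, which covers Kcnj5, held 2.38 and 1.87 in ES replicates and 0.381 and 0.633 in MEF replicates. This was 4.19 times as much in ES cells (log2 difference 1.90, SE 0.29, limma adjusted p = 0.0126). From 400 to 450 kb, reaching the end of Arhgap32, the values were 2.27 and 2.03 against 0.770 and 0.764, and both bins remained called under all 3 scalings. Farther out, at 750 to 800 kb, at the pseudogene Tpi-rs4 and the homeobox gene Barx2, ES cells held 0.937 and 0.879 and MEFs 0.269 and 0.116 (log2 difference 1.84, SE 0.31, limma adjusted p = 0.0126). The next bin, 800 to 850 kb, within Barx2, gave 1.11 and 0.852 against 0.308 and 0.223. The bins at 300 to 350 and 450 to 500 kb were also called (limma adjusted p = 0.0386 and 0.0263 in that order) but not with median-centred values. Those from 500 to 750 kb and at 850 to 900 kb were not called. Among these the groups overlapped at 600 to 650 kb, with 0.507 and 0.437 in ES replicates against 0.565 and 0.0506 in MEF replicates. In the others both ES values lay above both MEF values. The last 2 calls on this side, from 900 kb to 1 Mb, rest on 6 and 20 listed windows, with 0 counts in MEF replicate 1, and ended in edgeR's quasi-likelihood test on the recovered counts. On this side the bins from 350 to 450 kb and from 750 to 850 kb stayed called in all 5 alternatives that kept the 4 libraries and had no block and, like every bin, were not called with the block.

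Toward higher coordinates 6 of the 11 bins up to 550 kb were called, each MEF-higher, and MEF values dropped beyond. Among the other 5, the bin from 150 to 200 kb held 3.73 and 3.48 in ES replicates and 3.55 and 3.94 in MEF replicates (log2 difference -0.05, SE 0.19, limma adjusted p = 0.800), and in those at 50 to 100, 200 to 250, 300 to 350 and 400 to 450 kb both MEF values lay above both ES values without a call. The bin from 250 to 300 kb, between the noncoding genes Gm27162 and Gm27166, held 5.34 and 4.77 in MEF replicates and 2.24 and 2.18 in ES replicates (log2 difference -1.16, SE 0.19, limma adjusted p = 0.0126). At 350 to 400 kb, over Gm27166, it was 4.54 and 4.05 against 1.80 and 2.00. At 500 to 550 kb, before Gm32171, MEFs held 3.23 and 3.14 and ES cells 1.15 and 1.26, or 0.379 times as much in ES cells (log2 difference -1.33, SE 0.19, limma adjusted p = 0.0126). These 3 bins remained called under all 3 scalings, while those at 20 to 50, 100 to 150 and 450 to 500 kb ended on both rescalings. Across the 550 kb boundary the MEF replicates dropped 4.24-fold and 10.6-fold into the next bin, and the ES replicates 1.33-fold and 1.61-fold. From 550 kb to 1 Mb the bins had values between 0.298 and 0.866 in ES cells and between 0.0882 and 0.763 in MEFs, and 1 of the 9 was called, higher in ES cells (900 to 950 kb, limma adjusted p = 0.0386), a call that ended with median-centred values and in edgeR.

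Contact peaks were ranked within each cell type from windows more than 20 kb from the viewpoint centre with at least 10 counts in both libraries, leaving out windows within 25 kb of a peak already taken. The highest in both cell types was the same window, 33 kb toward higher coordinates inside Ets1 (chr9:32731001-32741000), with 22.2 and 20.5 in ES replicates and 28.7 and 37.4 in MEF replicates. MEFs were higher there (log2 difference -0.60 on the log2(value + 1) scale, SE 0.15, limma adjusted p = 0.00942). That call did not survive leaving out ES replicate 2, both rescalings, edgeR or DESeq2.

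In ES cells the peaks at ranks 2 and 3 also lay in Ets1, on the other side of the viewpoint, and neither was called. That at rank 2, chr9:32648001-32658000, held 14.0 and 12.2 (ES) against 10.9 and 14.6 (MEF), with overlapping groups (log2 difference 0.05, SE 0.18, limma adjusted p = 0.826). That at rank 3, 21 kb from the viewpoint centre, held 12.8 and 12.2 against 10.9 and 8.94 (log2 difference 0.31, SE 0.18, limma adjusted p = 0.181), and was called higher in ES cells in 5 of 13 alternatives, both rescalings among them. ES ranks 4 and 5 were at Gm31871 and Gm31928, and rank 6, 236 kb toward higher coordinates near Gm27162, held 5.83 and 5.99. Rank 8, 143 kb toward lower coordinates, between Gm31871 and Fli1, was the ES peak with the largest ES excess over MEFs, 6.50 and 5.04 against 4.40 and 1.99, and missed the threshold (log2 difference 0.74, SE 0.29, limma adjusted p = 0.0576), which it passed in 7 of 13 alternatives.

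In MEFs the peak at rank 2 was at Gm31871, 107 kb toward lower coordinates (chr9:32591001-32601000, which holds the promoter sequence shown above). It held 28.8 and 26.8 in MEF replicates, as much as the top peak in MEF replicate 1, and 8.10 and 8.88 in ES replicates (log2 difference -1.60, SE 0.15, limma adjusted p = 1.5e-04). MEF rank 3, inside Ets1 at 36 kb, held 19.4 and 16.6 against 10.1 and 9.72 in ES cells (limma adjusted p = 0.00437), and was not called when ES replicate 2 was left out. The MEF peaks outside Ets1 were all at noncoding genes or between them. Rank 4, 236 kb toward higher coordinates, held 12.6 and 12.0 against the ES values given above (log2 difference -0.94, SE 0.18, limma adjusted p = 0.00341). Rank 6, at 278 kb, had a mean of 10.9 ± 0.219 against 3.85 ± 0.522 in ES cells (SD, n = 2 each). Rank 5, 117 kb away in Gm3331, held 13.8 and 8.47 against 4.69 and 4.33. The peaks at ranks 2, 4, 5 and 6 kept their calls in all 13 alternatives tried.

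**Figure D5:**
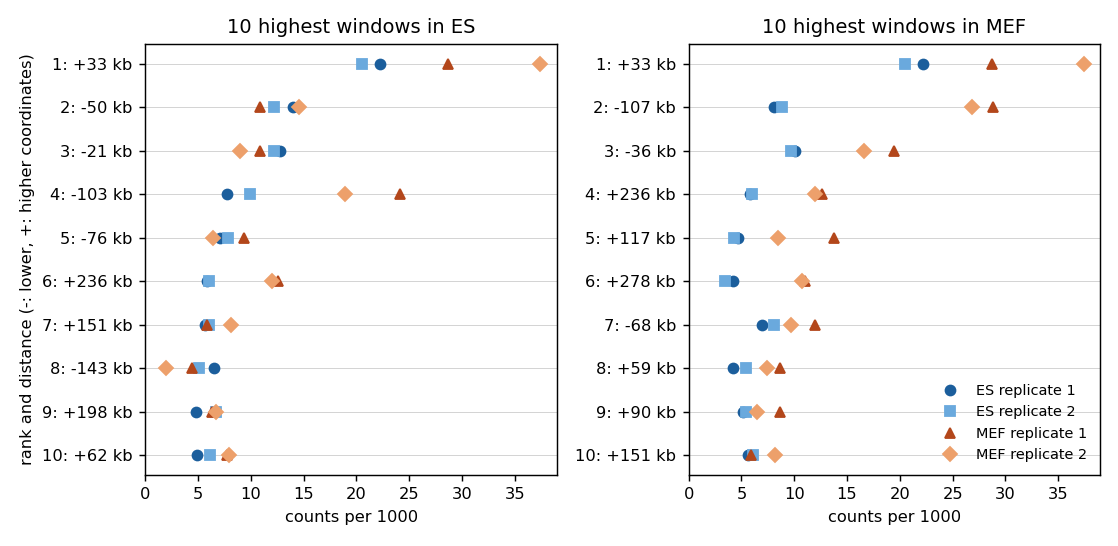
Counts per 1000 in the 10 highest windows of ES cells (left) and of MEFs (right), ranked within that cell type, with a point for each of the 4 libraries in the same window. The top window is the same in both. The MEF peak at rank 2, 107 kb toward lower coordinates, has MEF points at 28.8 and 26.8 and ES points at 8.10 and 8.88.

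Most peaks by level lay near a peak of the other cell type. With centres at most 20 kb apart, 8 of the 10 ES peaks (80.0%) lay at a MEF peak. At this margin 7 of the 10 MEF peaks (70.0%) lay at an ES peak. With centres at most 10 kb apart it was 6 of 10 in each list. A peak could match 2 of the other list, as MEF rank 3 did ES ranks 2 and 3. All these peaks lay within 278 kb of the viewpoint centre. The overlap that such close spacing alone would give was not tested. At the 20 kb margin single-library lists shared 9 of 10 peaks within ES cells and 8 of 10 within MEFs. Between an ES and a MEF library they shared 7 to 9 of 10. Of the 8 shared ES peaks limma called 3 MEF-higher (ranks 1, 4 and 6) and did not call 5. The 3 MEF peaks with no ES partner were those at 117, 278 and 90 kb, all toward higher coordinates, and the 2 ES peaks with no MEF partner were at 143 kb toward lower and 198 kb toward higher coordinates.

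A second ranking took the excess of a window over the fall with distance, estimated per cell type as a curve that can only decrease. The lists drew on unequal pools: 4257 windows had at least 10 counts in both ES libraries, and 1060 had them in both MEF libraries. The part of this in how many peaks were shared was not tested. The cell types shared 1 peak of 10 (10.0% of each list). It lay in Kirrel3, an adhesion gene of the immunoglobulin superfamily, 2.34 Mb toward higher coordinates, with 1.09 and 1.17 in ES replicates and 1.32 and 1.89 in MEF replicates. It ranked first in ES cells, with an excess of 1.62 on the log2 scale, and second in MEFs. The next lines of this ranking have to be read against the replicates, since single-library lists of 1 cell type shared only 3 of 10 peaks (ES) and 2 of 10 (MEF). The ES peak at Esam, a cell adhesion gene 4834 kb away, had 0.722 in ES replicate 1 and 0.0532 in ES replicate 2, and the MEF peak at Prdm10, a zinc finger gene 1372 kb away, had 2.27 in MEF replicate 1 and 0.337 in MEF replicate 2.

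The MEF excess peaks nearer the viewpoint were supported by both libraries. The first, 525 kb toward higher coordinates and 21.5 kb from Gm32171, had a MEF mean of 6.79 ± 1.71 against 2.01 ± 0.638 for ES cells (SD, n = 2 each). It stood 2.89 above the MEF curve on the log2 scale and differed between the cell types (log2 difference -1.37, SE 0.26, limma adjusted p = 0.00315). It lay just inside the 550 kb drop. Both peaks in Gm27166, at 386 and 359 kb, and the peak near Gm27162 had an excess between 2.03 and 2.20, and the one at 359 kb was not called without ES replicate 1. A further group lay at 2.44 to 2.71 Mb, in and beside Dcps, an mRNA decapping gene, and near Cdon, a cell-surface receptor gene. The window at 2.48 Mb in Dcps held a mean of 1.26 ± 0.224 in MEFs and 0.213 ± 0.0205 in ES cells (SD, n = 2 each), given as a description because it passed the filter only through the MEF libraries. In ES cells the 7th excess peak, at the pseudogene Tpi-rs4 near Barx2, 750 kb toward lower coordinates, was the strongest within 1 Mb. It had ES values of 1.42 and 1.59 against MEF values of 0.880 and 0.337. These too are given as a description, because the window passed the filter only through the ES libraries.

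Among the 15 protein-coding loci from 10 kb to 2 Mb with listed windows, the same 3 ranked highest in both cell types: Fli1, Kcnj1 and Kcnj5. They were also the 3 nearest, at 154, 298 and 353 kb from the viewpoint window, with Arhgap32 next at 429 kb. The part of the fall with distance in this shared order was not tested. A locus value averages the windows touching the gene or its 10 kb flanks. Fli1, the other ETS-family gene, held 2.81 and 2.80 in ES replicates and 1.98 and 2.35 in MEF replicates. Kcnj1, which encodes a renal potassium channel, held 2.48 and 2.54 against 1.42 and 1.32. Kcnj5, which encodes a subunit of G protein-gated potassium channels, held 2.35 and 1.77 against 0.497 and 0.586. The order of the next ones differed. Barx2 ranked 4 in ES cells with 0.958 and 0.841 but 11 in MEFs with 0.316 and 0.119. Arhgap32 ranked 5 in ES cells with 0.834 and 0.919 and 4 in MEFs with 0.452 and 0.360. Neither passed the filter of a value of at least 1 in 2 libraries, so neither was tested. Tmem45b, a membrane protein gene 1233 kb away, held 0.326 and 0.396 against 0.0677 and 0.123. At most of the other loci beyond 1 Mb the groups were closer: Nfrkb, Prdm10, Aplp2, St14 and Zbtb44 had ES values between 0.173 and 0.359 and MEF values between 0.136 and 0.452.

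A list of 38 genes around the viewpoint, among them the genes above, had 34 members on chromosome 9, all with listed windows, and 8 passed the filter. Of these, limma called 3 ES-higher and 5 MEF-higher, against 12 of 13 over all loci tested (92.3%; 53.8% ES-higher and 38.5% MEF-higher), so the share called is no result about the list. The 3 were Fli1, Kcnj1 and Kcnj5, and the 5 were the noncoding genes Gm31871, Gm31928, Gm3331, Gm27162 and Gm27166. The split of the loci followed the distance bins: the MEF-higher loci lie within 323 kb of the viewpoint window, and the ES-higher ones at 154 kb or more toward lower coordinates. Calls at Gm31928 (limma adjusted p = 0.0292) and Gm27162 (0.0244) ended on rescaling to the listed windows and that at Fli1 (0.0316) with median-centred values and in edgeR. Leaving out ES replicate 1 kept the call at Gm27166 and ended those of 6 more. Kcnj5 passed the filter only through the ES libraries, so the filter alone fixed the direction of its call. Kcnj5 was not tested without either ES replicate. Fli1 and Gm31928 were not called without ES replicate 2, nor Gm31928 without MEF replicate 1.

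Of 1051 windows tested, limma called 414 (39.4%), of which 162 were ES-higher (15.4%) and 252 MEF-higher (24.0%). For 448 windows (42.6%) the 95% interval of the log2 difference lay within 2-fold in either direction on the value + 1, and 428 of these were not called. The interval lay wholly beyond 2-fold in 9 windows. Adding 1 shrinks differences at values near 1, so this bound is not a 2-fold bound on contact itself: the Tpi-rs4 locus differed 4.51-fold in its means and by 0.72 on this log2 scale. By distance, the share of windows with an interval within 2-fold was 97.6% up to 20 kb, 53.3% from 20 to 50 kb, 74.0% from 50 to 100 kb, 59.4% from 100 to 200 kb and 28.2% from 200 to 500 kb. The intervals also widen with distance as counts fall, and the added 1 weighs more there, so the shares do not rank the classes by difference.

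The calls divided by side where the sums did. From 200 to 500 kb toward lower coordinates 143 of 275 windows were called and each was ES-higher (52.0%). Toward higher coordinates 111 of 267 were called and each was MEF-higher (41.6%). Listed windows on the 10 kb grid, which do not overlap, number 30 and 29 there. A window that passed the filter through the libraries of 1 cell type alone could only come out higher in that type. Such windows lay on both sides. Their number among the calls was not counted, here or over the whole profile. The filter can thus set part of the split of window calls, and how much was not tested. The sums and bins did not use this filter, but they rest on listed windows, each with counts in at least 3 libraries. From 20 to 50 kb, 28 of 30 windows toward higher coordinates were called MEF-higher (93.3%) and 9 of 30 toward lower coordinates (30.0%). Windows that do not overlap number 3 on each side there, and the bin on the higher side lost its call on both rescalings. From 100 to 200 kb both directions occurred toward lower coordinates, with 6 ES-higher and 16 MEF-higher windows of 100. Without ES replicate 1 or without ES replicate 2 fewer windows over the whole profile were called in either direction, ES-higher ones above all. The filter was applied again to the libraries left, so 892 and 906 windows were tested against 1051. Of the 414 called windows 304 were still tested in each fit, with the spread taken from the MEF pair. The median log2 difference of tested windows was -0.31 and -0.32. The parts of filter and spread in the fall were not tested. With edgeR on the recovered counts the split was 169 ES-higher to 122 MEF-higher, with medians of the log2 difference of 0.02 against -0.20 in limma. The other scalings gave 194 to 177 (median-centred), 211 to 154 (rescaled without windows within 50 kb) and 212 to 163 (rescaled to the listed windows), and all 162 ES-higher but 153 of the 252 MEF-higher windows stayed called under these 3.

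Correlations between ES and MEF profiles are given as a description. Over the 36 grid windows from 20 to 200 kb, r between an ES and a MEF library was 0.81 to 0.86, next to 0.86 between the MEF replicates. Over the 136 from 200 kb to 1 Mb it was 0.56 to 0.65, next to 0.65 between MEF replicates and 0.81 between ES replicates. All 4 libraries share the same DpnII sites and a fall with distance.

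Beyond 1 Mb the table listed 62.2% of window positions from 1 to 2 Mb toward lower coordinates and 86.2% toward higher coordinates, and 23.0% and 44.7% from 2 to 5 Mb. The class from 2 to 5 Mb toward higher coordinates, which holds Kirrel3 and then a gene-rich stretch with St3gal4, Dcps and Tirap, took 3.31% and 3.43% of the total in ES replicates and 4.60% and 4.17% in MEF replicates. St3gal4, a sialyltransferase gene, had ES values of 0.428 and 0.516 and MEF values of 0.682 and 0.692, and Tirap, an adaptor gene of Toll-like receptor signalling, 0.271 and 0.326 against 0.581 and 0.604. Both were higher in both MEF libraries, but not all neighbours were: Rpusd4 held 0.377 and 0.479 in ES replicates against 0.376 and 0.331 in MEF replicates, and Foxred1, Srpr and Fam118b overlapped between the groups. None of these genes passed the filter.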

How the data were processed

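4C-seq was done on formaldehyde-fixed chromatin with DpnII and then Csp6I, per the labels' protocols. Bowtie 1.0.0, edgeR and the build mm10 appear, without roles, in the submitters' processing notes. The sources used here do not state how windows were counted or duplicates handled. Deposited values are CPM by the table's name. All were whole multiples of 1 step (100% within 0.01 count), so counts were recovered, and the values are read as counts per 1000 of a library total.

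The window of highest mean was taken as the viewpoint. Windows and loci reaching a value of 1 in 2 or more of the 4 libraries were tested with limma 3.58.1 (R 4.3.3) on log2(value + 1), eBayes with a trend, and bins on log2(bin mean + 0.1) without a trend, two-sided, with Benjamini-Hochberg adjustment at 0.05 within each family. edgeR 4.0.16 and DESeq2 1.42.0 were run on the recovered counts as alternatives. Sums use windows on a 10 kb grid, with those up to 20 kb from the viewpoint centre left out. Peaks were taken 10 per list, both by level and by excess (log2(mean + 0.1) minus a monotone decreasing regression on distance); named genes overlap or lie nearest to a peak, or belong to a list of 38 genes around the viewpoint. The fits were also run on simulated counts drawn independently for each window or bin. Real windows overlap, so that run gives no error rate for the fits here. Of the list, AW549542 and Etl4 lie on other chromosomes and Senc and Trp53aip1 were not matched. Members and lists were chosen with earlier results of these data known. Python 3.11.15 with matplotlib 3.10.9 drew the figures.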

Additional observations from a re-analysis of the deposited data

How the results depend on the processing

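The replicate numbers pair nothing that the labels state, and same-numbered deviations had r = 0.07 over 103 windows. With the replicate block the count of called windows was 424 against 414, that of loci 10 against 12 and that of bins 0 against 16 (18 at an unadjusted limma p of at most 0.05); the cause was not tested. Leaving out a library gave 74 to 533 called windows, 0 to 30 bins, 1 to 12 loci, differences of -7.96 to -7.00 points in the share within 200 kb, 9.62 to 12.0 points in the side balance and 0.22 to 0.27 in the slope, and 8 to 9 shared peaks by level and 1 by excess. On the 10 kb grid 37 of 107 windows were called, since fewer were tested. Bins called were 25 with log2(bin mean + 0.5). The difference in share within 200 kb was -4.42 points over windows with counts in all 4 libraries. The side balance differed by 0.420 points within 200 kb and by 9.49 points out to 5 Mb. The slope differed by 0.32 without windows under 50 kb, 0.16 over windows with counts in all 4 libraries, 0.36 from 50 kb to 1 Mb and 0.37 with medians. With 20 peaks per list 15 were shared by level and 3 by excess, and with a pseudocount of 0.5 the excess lists shared 4; the cause of these moves was not tested. Scaling moved the split of calls: windows split 194 to 177 (ES-higher to MEF-higher) with median-centred values, 211 to 154 without windows within 50 kb, and 212 to 163 when rescaled to the listed windows, an alternative added after seeing the data, as was counting unlisted windows as 0 (slope difference 0.24). The median log2 difference of tested windows was -0.20 as deposited and 0.01 after that rescaling. Bins split 6 and 14 with median-centred values 13 and 3 on both rescalings and 7 and 11 in edgeR, against 9 and 7, and loci 7 and 3 when rescaled to the listed windows, against 7 and 5. DESeq2 called 278 windows, 170 ES-higher and 108 MEF-higher, and without the filter 284 of 8207 were called. Depth limits MEF replicate 1, where 3 counts are worth 0.220 per 1000, above most of its windows beyond 1 Mb.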
